A study of Mus musculus with 4 samples.

Results

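The 6 genes of the mouse Fc gamma receptor family described here were Fcgr1, Fcgr3, Fcgr4, Fcgr2b, Fcer1g and Fcgrt, taken by symbol from the 31053 genes of the count matrices. All 6 were found once in each of 4 single-cell RNA sequencing libraries, each made from the kidney of male mice of the C57BL/6 strain. All of these kidneys had undergone ischemia/reperfusion (I/R), an injury made by cutting off the renal blood flow for a time and letting it return. The library IR_d5 was made 5 days after I/R, and IR_d14 and IR_d28 at 14 and 28 days. The library IR_Lac.z_d5 was also made 5 days after I/R, from mice that had received the bacterium Lactobacillus casei Zhang by gavage for 4 weeks before the injury, at 1e9 colony-forming units a day. All 4 groups therefore had injured kidneys, and uninjured kidney was not analysed here. The sources used here do not say what the other mice received by gavage, nor how many animals went into a library.

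Fc gamma receptors bind the constant part of immunoglobulin G and link antibody to the phagocytes that take up what it coats. Fcgr1 encodes the high-affinity receptor, and Fcgr3 and Fcgr4 encode activating receptors of lower affinity. These 3 receptors reach the cell surface and signal through the common gamma chain encoded by Fcer1g, which carries an immunoreceptor tyrosine-based activation motif (ITAM). Fcgr2b encodes the inhibitory receptor, whose inhibitory motif (ITIM) recruits the phosphatase SHIP1, the product of Inpp5d. Fcgrt encodes the heavy chain of the neonatal Fc receptor FcRn, which pairs with B2m, binds immunoglobulin G and albumin inside acidic vesicles and returns them to the cell surface; in the kidney it is known from podocytes, endothelium and the proximal tubule. Mouse natural killer (NK) cells are known for Fcgr3, neutrophils for Fcgr3 and Fcgr4, and B cells for Fcgr2b.

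Of the 6 genes, all protein coding, 4 lie close together on chromosome 1 of GRCm38 in the GENCODE vM21 annotation. Fcgr2b (ENSMUSG00000026656) spans chr1:170958617-170976547 on the minus strand. Fcgr4 (ENSMUSG00000059089) spans chr1:171018920-171029761 on the plus strand, and Fcgr3 (ENSMUSG00000059498) spans chr1:171051174-171064935 on the minus strand. Fcer1g (ENSMUSG00000058715) follows at chr1:171229572-171234365 on the minus strand. Fcgr1 (ENSMUSG00000015947) lies at chr3:96282909-96293969 and Fcgrt (ENSMUSG00000003420) at chr7:45092990-45103851, both on the minus strand. Of the 6 genes, only Fcgr3 and Fcgr2b shared words of 31 bases in their transcripts (233 words, 13.4% of the words of Fcgr3 and 4.15% of those of Fcgr2b). The last 500 bases of their transcripts, where 3' tags fall, shared no word with each other.

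The 250 bases before the RefSeq start sites are shown for the genes that were higher together in the results below, Fcgr1 (chr3:96293970-96294219, minus strand) and Fcgr4 (chr1:171018676-171018925, plus strand), and for their shared chain Fcer1g (chr1:171234350-171234599, minus strand), all on GRCm38.p6 and read 5′ to 3′ along the gene. Capitals mark matches on either strand to 3 motifs: TTCNNNGAA, the gamma-activated sequence, GAAANNGAA, a part of the interferon-stimulated response element, and GAGGAA, the core bound by the myeloid factor PU.1.
Fcgr1: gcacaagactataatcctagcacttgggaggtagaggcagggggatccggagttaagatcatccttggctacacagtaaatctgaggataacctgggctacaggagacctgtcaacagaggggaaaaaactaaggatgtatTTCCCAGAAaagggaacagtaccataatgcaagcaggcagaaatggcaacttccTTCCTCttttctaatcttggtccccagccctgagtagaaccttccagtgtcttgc
Fcgr4: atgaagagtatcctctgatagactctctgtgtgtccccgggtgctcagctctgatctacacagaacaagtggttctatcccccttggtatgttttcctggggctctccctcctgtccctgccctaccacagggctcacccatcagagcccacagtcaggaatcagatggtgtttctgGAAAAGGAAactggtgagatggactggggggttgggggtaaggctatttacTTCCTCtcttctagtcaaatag
Fcer1g: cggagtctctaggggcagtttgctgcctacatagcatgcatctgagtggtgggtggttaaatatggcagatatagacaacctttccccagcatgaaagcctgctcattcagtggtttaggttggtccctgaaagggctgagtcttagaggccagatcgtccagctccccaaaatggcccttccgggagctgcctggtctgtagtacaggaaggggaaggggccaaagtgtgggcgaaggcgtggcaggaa
Counted back from the start site, the Fcgr1 window held TTCCCAGAA at -109 to -101 and TTCCTC, the reverse complement of GAGGAA, at -55 to -50. The Fcgr4 window held GAAAAGGAA at -73 to -65 and TTCCTC at -22 to -17. The window of Fcgr3 had only the GAGGAA match, at -15 to -10 of its first listed start, and the windows of Fcgr2b, Fcer1g and Fcgrt had none of the 3; no matches overlapped. Among 32851 RefSeq promoter windows of the same length, 7.02% held TTCNNNGAA, 7.13% held GAAANNGAA and 23.3% held GAGGAA. These matches describe letters in a window and not bound sites.

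The matrices held 8168 to 15583 barcodes and 76678882 to 104454319 unique molecular identifiers (UMIs, the tags that count captured RNA molecules) per library, and 6583 to 12376 cells a library were kept after filters and doublet removal. Any pair of libraries shared 15 to 43 barcode sequences. Cells were clustered without the 6 genes, and classes were named from marker lists in which none of them stood. The macrophage-like class had all 9 of its markers (C1qa, Adgre1 and Csf1r among them) in every library. The cell numbers were 3673 macrophage-like cells in IR_d5, 1476 in IR_Lac.z_d5, 722 in IR_d14 and 403 in IR_d28, with median UMIs per cell of 11146, 11058, 8966 and 5099. With 1 library a group there was no spread between replicates and no test. Each level below is the gene's UMIs per 1000000 UMIs of the summed class (CPM) with an exact 95% interval that covers counting error only. A gene was called higher or lower where its ratio reached 1.5-fold with at least 50 UMIs over both libraries, and only genes with that many UMIs count as measured. All 3 comparisons were made against the same IR_d5 library. The matrix headers name one software version for both day-5 libraries and another for IR_d14 and IR_d28, so time and version cannot be told apart.

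Macrophage-like cells held the highest levels of Fcgr1 and Fcgr2b among the classes of at least 50 cells, apart from monocyte-like cells, which lay near them in the day-5 libraries. In IR_Lac.z_d5 the activating receptors Fcgr1 and Fcgr4 stood at more than 2-fold their IR_d5 level, while Fcgr3 and the inhibitory Fcgr2b stayed near it. At days 14 and 28 the order was different: Fcgr4 was again higher than in IR_d5, Fcgr1 was near its IR_d5 level, and Fcgr3 was lower by less than the 1.5-fold limit. The level of Fcgr1 was 311.7 CPM (306.5 to 316.9) in IR_d5, 645.3 (633.7 to 657.1) in IR_Lac.z_d5, 298.7 (285.9 to 311.9) in IR_d14 and 290.2 (268.6 to 313.1) in IR_d28. The IR_Lac.z_d5 library alone was high, 2.07-fold above IR_d5 (2.02 to 2.12), and the other 3 libraries had overlapping intervals. The level of Fcgr4 was 161.3 CPM (157.6 to 165.1) in IR_d5, 392.4 (383.3 to 401.6) in IR_Lac.z_d5, 251.2 (239.4 to 263.3) in IR_d14 and 310.2 (287.8 to 333.8) in IR_d28. IR_d5 was thus the lowest of the 4 libraries for Fcgr4, with ratios to it of 2.43 (2.35 to 2.51) in IR_Lac.z_d5, 1.56 (1.48 to 1.64) in IR_d14 and 1.92 (1.78 to 2.08) in IR_d28. With each library clustered on its own, the IR_d14 ratio of Fcgr4 was 1.35 and no longer called.

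Fcgr3 was at 947.6 CPM in IR_d5, 910.5 in IR_Lac.z_d5, 805.3 in IR_d14 and 719.6 in IR_d28. It was lowest at day 28, at 0.759 of the IR_d5 level (0.723 to 0.798), which did not reach the 1.5-fold limit. The inhibitory receptor Fcgr2b was at 542.2, 550.2, 594.1 and 473.3 CPM in the same order, with ratios to IR_d5 between 0.873 (0.821 to 0.928) and 1.10 (1.06 to 1.13). The common gamma chain Fcer1g was at 3134, 3691, 3199 and 3344 CPM, and its highest library, IR_Lac.z_d5, was 1.18-fold above IR_d5 (1.17 to 1.19). Its ratio was therefore below those of Fcgr1 and Fcgr4, receptors that it carries. Fcgrt was at 191.7 CPM in IR_d5 and lower in the other libraries, at 154.0 in IR_Lac.z_d5 (ratio 0.803, 0.770 to 0.839), 178.7 in IR_d14 and 174.9 in IR_d28, in no case past the limit.

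**Figure D1:**
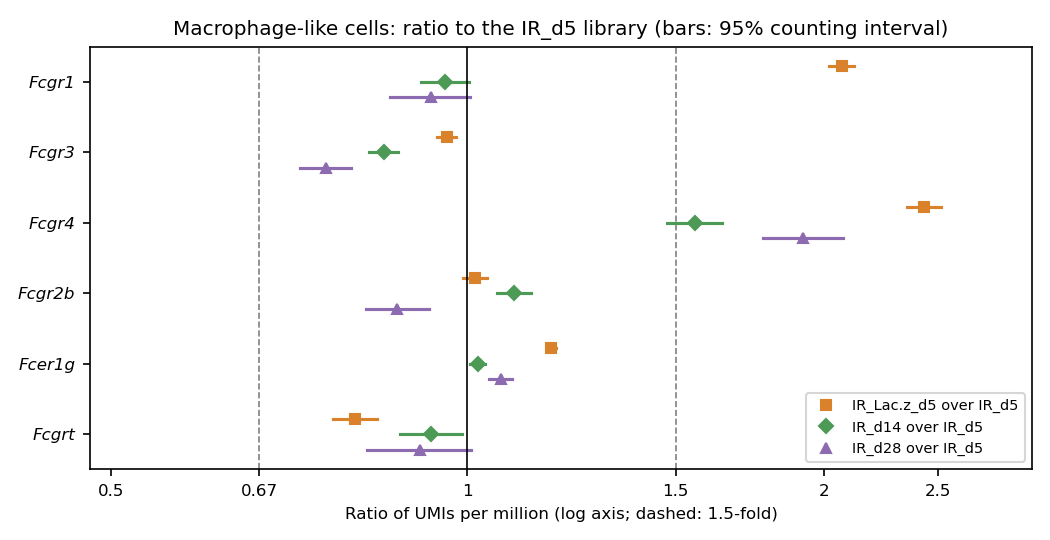
Ratio of the CPM of each gene in macrophage-like cells to IR_d5 (log axis) for IR_Lac.z_d5, IR_d14 and IR_d28, with 95% counting intervals and dashed lines at 0.67 and 1.5. Fcgr1 (2.07) and Fcgr4 (2.43) lie above the upper line in IR_Lac.z_d5, and Fcgr4 alone does so in IR_d14 (1.56) and IR_d28 (1.92).

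In IR_Lac.z_d5, 2 of the 6 genes were higher and 0 lower, beside 6.88% of 11358 measured genes that were higher and 3.11% that were lower. In IR_d14, 1 of 6 was higher and 0 lower, beside 9.92% of all measured genes higher and 13.3% lower. In IR_d28, 1 of 6 was higher and 0 lower, beside 16.6% higher and 13.2% lower, so that the count for days 14 and 28 lay near the background. The median log2 ratio of the 6 genes was 0.13 in IR_Lac.z_d5, -0.02 in IR_d14 and -0.12 in IR_d28, against 0.03, -0.09 and 0.01 over all measured genes.

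The share of macrophage-like cells with at least 1 UMI followed the levels when every cell was thinned to 2000 UMIs. For Fcgr1 it was 45.5% in IR_d5, 68.3% in IR_Lac.z_d5, 41.9% in IR_d14 and 42.2% in IR_d28. For Fcgr4 the shares were 28.2%, 51.7%, 37.2% and 43.8%, so IR_d5 was lowest here too. Before thinning, which left out 442, 37, 19 and 20 shallower cells, the shares were 82.5%, 94.7%, 80.8% and 69.0% for Fcgr1 and 66.5%, 88.2%, 73.8% and 68.5% for Fcgr4. Thinned T-like cells, a class that should lack both genes, had Fcgr1 in 0.947%, 0%, 0.126% and 0.362% of cells (median UMIs per cell 4603, 4508, 4389 and 3196 before thinning) and Fcgr4 in at most 0.384%. The thinned shares of the other receptors moved less, from 73.8% to 80.6% for Fcgr3 and from 58.8% to 62.8% for Fcgr2b. Fcer1g was found in 97.4% to 99.2% of the thinned macrophage-like cells.

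Interferon-stimulated genes were higher in the libraries where Fcgr4 was higher, and so also in IR_d14 and IR_d28, where Fcgr1 was not. The summed level of 101 such genes, which had been left out when the macrophage-like cells were divided into sub-clusters, was 6231 CPM in IR_d5, 20510 in IR_Lac.z_d5, 8532 in IR_d14 and 10500 in IR_d28. Of those measured, 77 of 86 were higher in IR_Lac.z_d5 with 1 lower, 48 of 83 in IR_d14 with 1 lower, and 68 of 83 in IR_d28 with 2 lower. A first clustering that kept these genes had one cluster of macrophage-like cells led by Cxcl9, Ccl12 and Ifit2, which held 85 cells of IR_d5 and 771 of IR_Lac.z_d5. Inside it Fcgr1 was at 847 CPM in IR_d5 and 881 in IR_Lac.z_d5 (ratio 1.04), and Fcgr4 at 466 and 566 (ratio 1.21). Outside it Fcgr1 was at 299 and 428 CPM (ratio 1.43) and Fcgr4 at 154 and 233 (ratio 1.51). The difference between the libraries was thus smaller on either side of this division than over all macrophage-like cells, and the interferon genes themselves still differed outside the cluster, at 5708 and 11480 CPM. The part of these genes in the levels of Fcgr1 and Fcgr4 was not tested.

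Within macrophage-like cells, 9 sub-clusters were described by their leading genes, and the activating receptors and Fcgrt ranked them differently. Leading genes were ranked against the mean of all clusters of the first clustering, tubule included. The lists for resident-like and monocyte-derived macrophages were met by no sub-cluster, and 2 sub-clusters met a list, one for repair (led by Arg1 and Gpnmb) and one for cycling cells (Hist1h1b and Pclaf). In IR_d5, over 8 sub-clusters of at least 50 cells, Fcgr4 had a range of 4.45-fold, from 66.6 CPM in the cycling-like cells to 296.3 in the cells led by Lilra5 and Cx3cr1. That sub-cluster had the highest level of Cx3cr1, the fractalkine receptor, of all 9. Over all libraries Cx3cr1 was at 821.2 CPM in it, against 697.6 in the sub-cluster led by Cxcl9 and Ccl4. Ranked against the other macrophage-like sub-clusters instead, the Lilra5 and Cx3cr1 cells were led by Hbb-bt, Hba-a2, Hba-a1 and Hspa1b. Fcgr1 was also highest in the Lilra5 and Cx3cr1 cells, at 398.7 CPM, with a range of 1.81-fold. When interferon-stimulated genes were kept in the sub-clustering, the ranges were 7.72-fold for Fcgr4 and 3.48-fold for Fcgr1, and at a higher clustering resolution that of Fcgr1 was 3.12-fold. Next for both genes came the sub-cluster led by Cxcl9 and Ccl4, with Fcgr1 at 367.3 and Fcgr4 at 271.8 CPM, and for Fcgr1 the one led by Ccl7 and Ccl12, at 360.3.

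Fcgr3 and Fcgr2b were high in other cells. Fcgr3 reached 1064 CPM in the sub-cluster led by Ccl8 and Stab1, 1063 in the one led by Ccl7 and Ccl12 and 1042 in the repair-like one, against 827.4 in the Lilra5 and Cx3cr1 cells, a range of 1.69-fold in all. Fcgr2b was 700.8 CPM in the Ccl8 and Stab1 cells and 621.4 in the repair-like cells, against 376.3 in the Lilra5 and Cx3cr1 cells. Fcgrt had a range of 3.19-fold, from 104.9 CPM in the repair-like cells to 334.9 in the Ccl7 and Ccl12 cells, and of 6.09-fold with interferon genes kept, 5.80-fold at the higher resolution and 4.94-fold with doublets kept. Fcer1g varied by 1.58-fold, and its lowest level, 2120 CPM, was in a sub-cluster of few UMIs per cell (median 1306.5) that made up 12.1% of the IR_d5 macrophage-like cells and 1.42% of those of IR_Lac.z_d5.

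The higher Fcgr1 and Fcgr4 of IR_Lac.z_d5 was present in all 6 sub-clusters with at least 50 cells in both day-5 libraries. These 6 were made without the interferon-stimulated genes, whereas inside the interferon-led cluster described above the Fcgr1 ratio was 1.04. Over the 6 sub-clusters, the Fcgr1 ratios ran from 1.70 in the repair-like cells to 2.39 in the Lilra5 and Cx3cr1 cells. Those of Fcgr4 ran from 2.01 to 2.98. In the Lilra5 and Cx3cr1 cells Fcgr1 was at 951.3 CPM in IR_Lac.z_d5 and Fcgr4 at 642.9. None of the other 4 genes passed the limit in any of the 6, with ratios of 0.912 to 1.06 for Fcgr3, 0.996 to 1.29 for Fcgr2b, 1.09 to 1.29 for Fcer1g and 0.720 to 0.915 for Fcgrt. In each sub-cluster 2 of 6 genes were called, beside 12.2% of all measured genes in the Lilra5 and Cx3cr1 cells, 11.2% in the Ccl7 and Ccl12 cells, 11.1% in the cycling-like cells, 7.41% in the repair-like cells, 10.8% in the Cxcl9 and Ccl4 cells and 11.3% in the Ccl8 and Stab1 cells. The Cxcl9 and Ccl4 cells, second for Fcgr4, were 17.0% of the macrophage-like cells in IR_d5 and 31.2% in IR_Lac.z_d5.

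**Figure D2:**
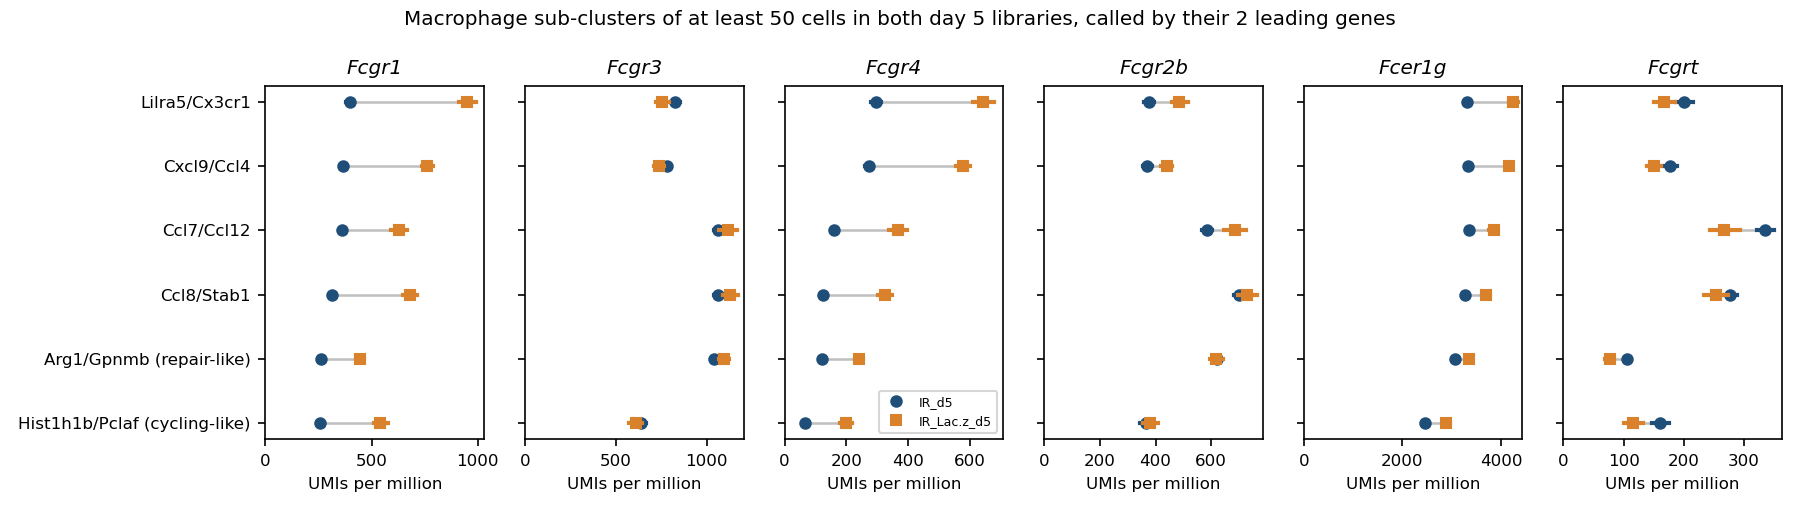
CPM of each gene (1 panel a gene, linear axis) in the 6 macrophage-like sub-clusters with at least 50 cells in both day-5 libraries; circles are IR_d5, squares IR_Lac.z_d5, bars are 95% counting intervals and grey lines join the pair. The squares lie right of the circles in all 6 sub-clusters for Fcgr1 and Fcgr4, whereas for Fcgr3 the pairs lie close together (ratios 0.912 to 1.06).

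Over time both the composition of the class and the level of Fcgr4 changed, and the part of the first in the second was not tested. A sub-cluster led by Cd83 and Cd14 was 0.136% of the macrophage-like cells of IR_d5 and 0.881% of those of IR_Lac.z_d5 but 68.0% of those of IR_d14 and 58.6% of those of IR_d28. Its Fcgr4 level was 290.7 CPM in IR_d14 and 332.1 in IR_d28, near the IR_d5 level of the Lilra5 and Cx3cr1 cells. Only the latter sub-cluster had at least 50 cells in all 4 libraries. Within it Fcgr4 was at 296.3 CPM in IR_d5, 344.9 in IR_d14 (ratio 1.16, 0.992 to 1.36) and 402.9 in IR_d28 (ratio 1.36), so that the day-14 and day-28 calls of the whole class were not met there. Fcgr2b was at 376.3, 545.5 and 590.8 CPM within it, with ratios of 1.45 in IR_d14 and 1.57 (1.36 to 1.81) in IR_d28, past the limit at day 28. Of the 6 genes, 0 were called there in IR_d14, beside 21.6% of all measured genes, and 1 in IR_d28, beside 27.5%.

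The UMIs of the 3 activating receptors over those of Fcgr2b gave 1 activating to inhibitory ratio per class and library. In macrophage-like cells it was 2.62 (2.58 to 2.66) in IR_d5, 3.54 (3.46 to 3.62) in IR_Lac.z_d5, 2.28 (2.20 to 2.37) in IR_d14 and 2.79 (2.60 to 2.99) in IR_d28. IR_Lac.z_d5 was the highest and its interval lay apart from the others. The makeup of the activating UMIs differed as well: Fcgr1 gave 21.9% of them in IR_d5 and 33.1% in IR_Lac.z_d5, Fcgr4 gave 11.4% and 20.1%, and Fcgr3 gave 66.7% and 46.7%. In IR_d28 the share of Fcgr1 was 22.0%, as in IR_d14, and that of Fcgr4 23.5%. Among sub-clusters the ratio in IR_d5 ran from 2.14 in the Ccl8 and Stab1 cells to 4.05 in the Lilra5 and Cx3cr1 cells, and it was higher in IR_Lac.z_d5 in each of the 6 (2.87 to 4.84). Within the Lilra5 and Cx3cr1 cells it was 2.83 in IR_d14 and 2.77 in IR_d28.

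**Figure D3:**
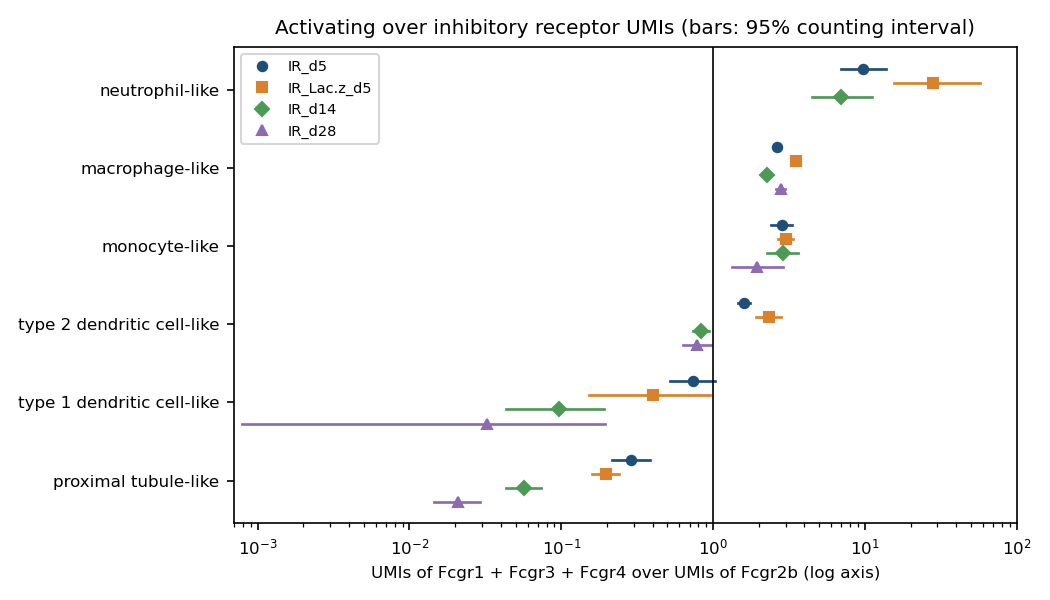
UMIs of Fcgr1, Fcgr3 and Fcgr4 over UMIs of Fcgr2b (log axis, line at 1) by class and library, with 95% counting intervals. Neutrophil-like cells lie highest (6.92 to 28.3), macrophage-like cells between 2.28 and 3.54, and type 1 dendritic-like and proximal tubule-like cells below 1.

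Monocyte-like cells, which joined classical and non-classical markers, numbered 63 in IR_d5, 73 in IR_Lac.z_d5 and 58 in IR_d14. Fcgr1 was at 305.9 CPM (178 UMIs) in IR_d5, 704.4 (515 UMIs) in IR_Lac.z_d5 and 130.7 (56 UMIs) in IR_d14. Fcgr4 was at 165.0, 307.8 and 142.3 CPM. As in macrophage-like cells, both genes were higher in IR_Lac.z_d5, by 2.30-fold (1.94 to 2.75) and 1.87-fold (1.46 to 2.39), and they were the 2 called of 5 measured, beside 18.1% of all measured genes. Fcgr3 (630.7 and 611.4 CPM) and Fcgr2b (390.1 and 540.3) did not reach the limit. In IR_d14, 3 of 5 were lower, Fcgr1 by 2.34-fold, Fcgr2b by 1.67-fold and Fcgr3 by 1.59-fold, beside 36.4% of all measured genes. The summed macrophage markers in these cells were 14110, 12510 and 5482 CPM in IR_d5, IR_Lac.z_d5 and IR_d14, and their part in the lower day-14 levels was not tested. The activating to inhibitory ratio was 2.82 (2.42 to 3.30), 3.01 (2.68 to 3.38) and 2.87 (2.28 to 3.64), with overlapping intervals.

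Neutrophil-like cells had Fcgr3, Fcgr4 and Fcer1g and little or no Fcgr1. Their 8 markers were all present, and they numbered 180, 128 and 88 cells in IR_d5, IR_Lac.z_d5 and IR_d14, with median UMIs per cell of 2285, 2519 and 2833.5. The summed markers were at 81220, 156500 and 76470 CPM in the same order, and the part of this difference in the receptor levels was not tested. Fcgr3 was at 711, 569 and 604 CPM and was found in 76.7%, 75.8% and 77.3% of the cells. Fcer1g was at 2791, 2378 and 3104 CPM. Fcgr1 had 6, 10 and 0 UMIs and Fcgrt 8, 2 and 0. Fcgr4 was at 97.9 CPM (46 UMIs), 209 (81 UMIs) and 64.4 (16 UMIs), 2.14-fold higher in IR_Lac.z_d5 than in IR_d5 (1.47 to 3.14). Fcgr2b went the other way, at 85.2 CPM (40 UMIs), 28.4 (11 UMIs) and 96.6 (24 UMIs), which was 2.99-fold lower in IR_Lac.z_d5 (1.51 to 6.47).

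In neutrophil-like cells 2 of 4 measured genes were thus called in IR_Lac.z_d5, beside 22.0% of all measured genes (5.69% higher and 16.3% lower), and 0 of 4 in IR_d14, beside 23.7%. Fcgr4 in IR_d14 was 1.52-fold lower by its CPM and under the limit once 1 UMI was added to each library. The activating to inhibitory ratio was 9.65 (6.96 to 13.7) in IR_d5, 28.3 (15.6 to 57.2) in IR_Lac.z_d5 and 6.92 (4.49 to 11.1) in IR_d14, above that of macrophage-like cells in the same library each time. Of the activating UMIs in IR_d5, 86.5% were Fcgr3 and 1.55% Fcgr1, against 66.7% and 21.9% in macrophage-like cells. The summed macrophage markers in neutrophil-like cells were 1824 CPM in IR_d5, 483 in IR_Lac.z_d5 and 564 in IR_d14, with 8 of 9 lower in IR_Lac.z_d5. With doublets kept, Fcgr2b in IR_d5 neutrophil-like cells was at 160 CPM. The part of macrophage RNA in the Fcgr2b difference was not tested.

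Type 2 dendritic-like cells, the conventional dendritic cells marked here by Cd209a and Clec10a, had lower activating to inhibitory ratios than macrophage-like cells in every library, and at days 14 and 28 the ratio lay below 1. The ratio was 1.60 (1.47 to 1.74) in IR_d5, 2.33 (1.93 to 2.81) in IR_Lac.z_d5, 0.831 (0.735 to 0.939) in IR_d14 and 0.781 (0.631 to 0.965) in IR_d28, from 195, 66, 123 and 57 cells. Fcgr1 was at 128.8, 189.7, 32.7 and 56.4 CPM, Fcgr3 at 350.9, 211.4, 224.3 and 200.9, and Fcgr4 at 55.0, 56.8, 34.5 and 24.7. All 3 activating receptors were lower in IR_d14 and in IR_d28 than in IR_d5, Fcgr1 by 3.94-fold (2.95 to 5.36) and 2.28-fold, Fcgr3 by 1.56-fold and 1.75-fold, and Fcgr4 by 1.60-fold and 2.23-fold. Fcgr2b was at 334.5 CPM in IR_d5, 196.9 in IR_Lac.z_d5, 350.7 in IR_d14 and 361.3 in IR_d28, near its IR_d5 level at both later times (ratios 1.05 and 1.08).

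Of the 6 genes in type 2 dendritic-like cells, 3 were called in IR_d14, beside 18.3% of all measured genes, and 3 in IR_d28, beside 22.2%. In IR_Lac.z_d5, 2 were called, beside 13.9%, namely Fcgr3, 1.66-fold lower, and Fcgr2b, 1.70-fold lower, and Fcgr1 was 1.47-fold higher. In macrophage-like cells the ratios of Fcgr3 and Fcgr2b in that library were 0.961 and 1.01; the difference between the classes was not tested. The summed macrophage markers in these cells were 5788 CPM in IR_d5, 2178 in IR_Lac.z_d5, 1578 in IR_d14 and 1986 in IR_d28. Of the 9 markers, 8, 6 and 5 were lower in the latter 3 libraries, and their part in the receptor levels was not tested.

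Type 1 dendritic-like cells, marked by Xcr1 and Clec9a, had Fcgr2b and Fcgrt. Their activating receptor UMIs were 61 beside 83 of Fcgr2b in IR_d5 and 9 beside 93 in IR_d14. In IR_d5 (52 cells) and IR_d14 (56 cells) Fcgr2b was at 86.9 and 104 CPM and Fcgrt at 119 and 162 CPM. Fcgr3 was at 39.8 and 7.81 CPM, Fcgr4 at 18.8 and 2.23, and Fcgr1 had 5 and 0 UMIs. The gamma chain Fcer1g was 2.32-fold lower in IR_d14, at 287 and 124 CPM, the 1 gene called of 3 measured, beside 21.5% of all measured genes. The activating to inhibitory ratio was 0.735 (0.519 to 1.035) in IR_d5 and 0.0968 (0.0429 to 0.192) in IR_d14. Outside the myeloid classes, Fcer1g reached 128 CPM in endothelial-like and 106 in distal convoluted tubule-like cells, with 116 and 47 UMIs in IR_d5. Fcgr3 reached 34.2 and 29.2 CPM in the same classes. The part of macrophage RNA in the type 1 dendritic-like values was not tested.

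NK-like cells were present in number only in IR_d28, with 82 cells and all 9 of their markers. Nearly all of them had an Fcer1g UMI and few had a UMI of an activating Fc gamma receptor. Ncr1, among those markers, was also on the list of gamma chain partners used below. Fcer1g was at 2203 CPM (2030 to 2387) and was found in 78 of the cells, 95.1%. Fcgr3, known from these cells, had 7 UMIs, 25.8 CPM (10.4 to 53.2), in 5 cells, 6.10%. The share of T-like cells of that library with an Fcgr3 UMI was 0.234%, at a median of 3196 UMIs per cell against 2967 in NK-like cells. After thinning the shares were 4.57% and 0.0865%. Fcgr1, Fcgr4 and Fcgrt were found in 0 of 82 cells, so that at most 4.40% of such cells would carry a UMI (exact Clopper-Pearson), a limit on detection and not on expression. The partner chains Tyrobp, at 1727 CPM, and Cd247, at 66.4 CPM, carry other NK receptors, and the summed macrophage markers were at 18.5 CPM with 7 of 9 at 0. The summed T cell markers in the same cells were at 3439 CPM with Cd4 at 0, and the part of T cells in these values was not tested.

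Among cells with an Fcer1g UMI, the share with no UMI of any activating receptor was 93.6% in the NK-like cells of IR_d28, and 76.2%, 100% and 80.8% in the 23, 17 and 33 NK-like cells of IR_d5, IR_Lac.z_d5 and IR_d14. It was 0.751% to 4.21% over the 4 libraries in macrophage-like cells, 16.8% to 20.5% over the 3 libraries with at least 50 neutrophil-like cells and 7.58% to 40.4% over the 4 libraries in type 2 dendritic-like cells. These shares were not thinned and so moved also with depth. The B-like cells of IR_d5 and IR_d14, a class known for the inhibitory receptor, had Fcgr2b at 42.2 and 58.5 CPM, from 10 and 13 UMIs.

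**Figure D4:**
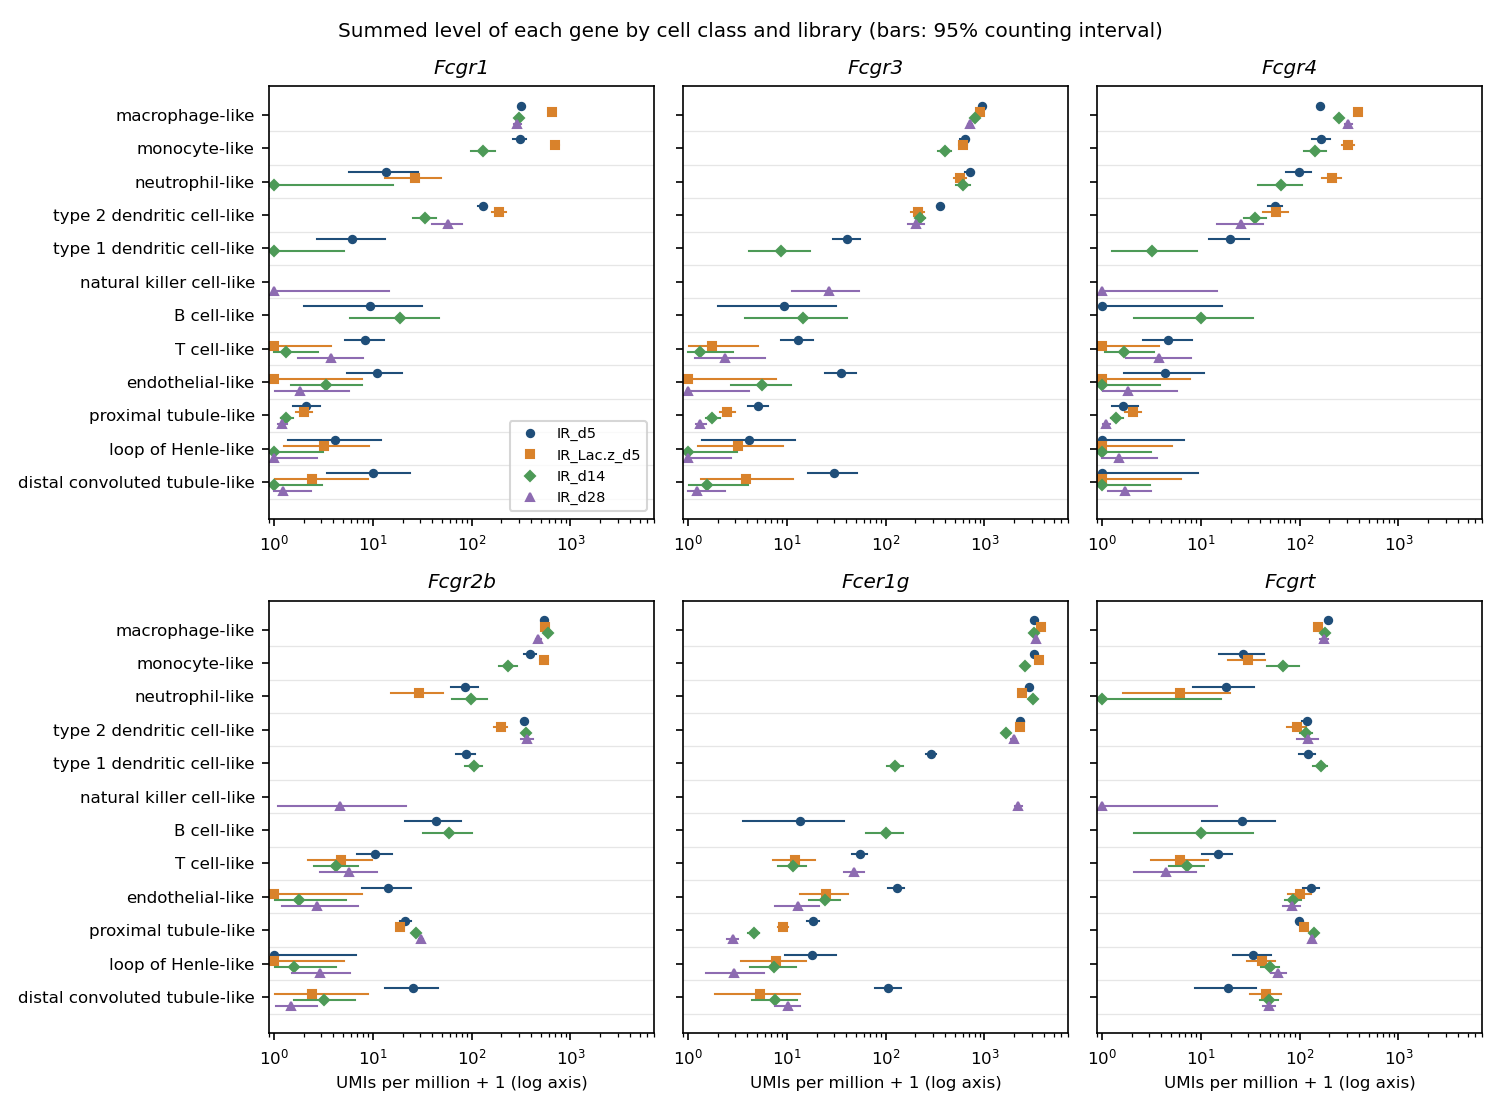
CPM of each gene, plus 1, on a log axis (1 panel a gene) by class, for classes with at least 50 cells in a library; colours and markers are the 4 libraries and bars are 95% counting intervals. Fcgr1 is highest in macrophage-like and monocyte-like cells, while Fcgrt also reaches 97.6 to 139 in proximal tubule-like cells.

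Fcgrt was found in epithelial and endothelial classes as well as in myeloid ones. Over libraries it ranged from 154 to 192 CPM in macrophage-like cells, 119 to 162 in type 1 dendritic-like, 97.6 to 139 in proximal tubule-like, 93.0 to 120 in type 2 dendritic-like and 82.6 to 129 in endothelial-like cells. The last 4 of these ranges overlap one another and give no order, and the first overlaps that of type 1 dendritic-like cells. Lower were loop of Henle-like cells (32.6 to 59.8), monocyte-like cells (25.8 to 67.7) and distal convoluted tubule-like cells (18.0 to 48.6), whose ranges overlap too, and neutrophil-like cells were at 0 to 17.0. The proximal tubule-like cells, which reabsorb filtered protein, held Fcgrt at 97.6 CPM in IR_d5, 108.9 in IR_Lac.z_d5, 139.3 in IR_d14 and 132.0 in IR_d28. Its partner B2m was at 203, 332, 216 and 283 CPM there and at 1393, 2644, 2178 and 2814 CPM in macrophage-like cells. In macrophage-like cells B2m was thus higher in all 3 libraries than in IR_d5 (1.90-fold, 1.56-fold and 2.02-fold), while the Fcgrt heavy chain was not.

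Proximal tubule-like cells also held low levels of Fcgr2b that did not follow those of Fcer1g. Fcgr2b was at 20.4 CPM (17.8 to 23.2) in IR_d5, 17.9 (16.5 to 19.5) in IR_Lac.z_d5, 26.1 (24.5 to 27.7) in IR_d14 and 29.5 (28.12 to 30.97) in IR_d28, from 222, 570, 1053 and 1670 UMIs. Fcer1g, the gamma chain of myeloid cells, was at 17.5, 8.12, 3.64 and 1.84 CPM in the same libraries, and the summed macrophage markers at 496, 383, 387 and 186 CPM. Both of the latter were lowest in IR_d28, where Fcgr2b was highest. The part of macrophage RNA in the Fcgr2b levels of these cells was not tested. Per Fcer1g UMI there were 1.16, 2.21, 7.16 and 16.1 Fcgr2b UMIs, against 0.142 to 0.186 in macrophage-like cells. T-like cells had 0.101 to 0.333 and distal convoluted tubule-like cells 0.0526 to 0.333, from at most 21 and 11 Fcgr2b UMIs a library. The excess over the macrophage ratio was not present at the proximal tubule-like size in these classes, but it was not limited to the proximal tubule-like class. An unnamed cluster led by Serpina1f and Serpina1a had 71 Fcgr2b UMIs beside 4 of Fcer1g in IR_d14 and 41 beside 19 in IR_d28. The unnamed cluster led by Havcr1 had 48 beside 14 in IR_d14, but 23 beside 103 in IR_d5.

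Within the proximal tubule-like class, Fcgr2b differed among clusters. A cluster led by Snhg11 and Slc5a12 had 22.8 to 40.9 CPM over libraries (median 33.3), and one led by Gm45792 and Pdk4 had 18.8 to 38.0 (median 24.8). Of the other proximal tubule-like clusters, 4 had medians of 15.2 to 20.2 CPM, one led by Ifit1 and Iigp1 with enough cells in 1 library was at 10.2, and an unnamed cluster led by the injury marker Havcr1 had 8.74 to 14.1. Proximal tubule-like cells with an Fcgr2b UMI had an Fcer1g UMI in 17.8%, 8.83%, 5.10% and 1.77% of cells in IR_d5, IR_Lac.z_d5, IR_d14 and IR_d28, against 12.02%, 6.16%, 2.29% and 0.932% of those without. The median depth was 10137.5 to 12466.5 UMIs per cell with and 4103 to 7386 without. The annotation has an antisense gene, Gm38204, that overlaps Fcgr2b over 3175 bases; it had 29 UMIs in proximal tubule-like cells beside 3515 of Fcgr2b, and 2 beside 39185 in macrophage-like cells. Another, Gm45669, overlaps Fcgrt and had 0 UMIs in proximal tubule-like cells beside 17609 of Fcgrt. The sources used here do not state whether counting used strand.

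**Figure D5:**
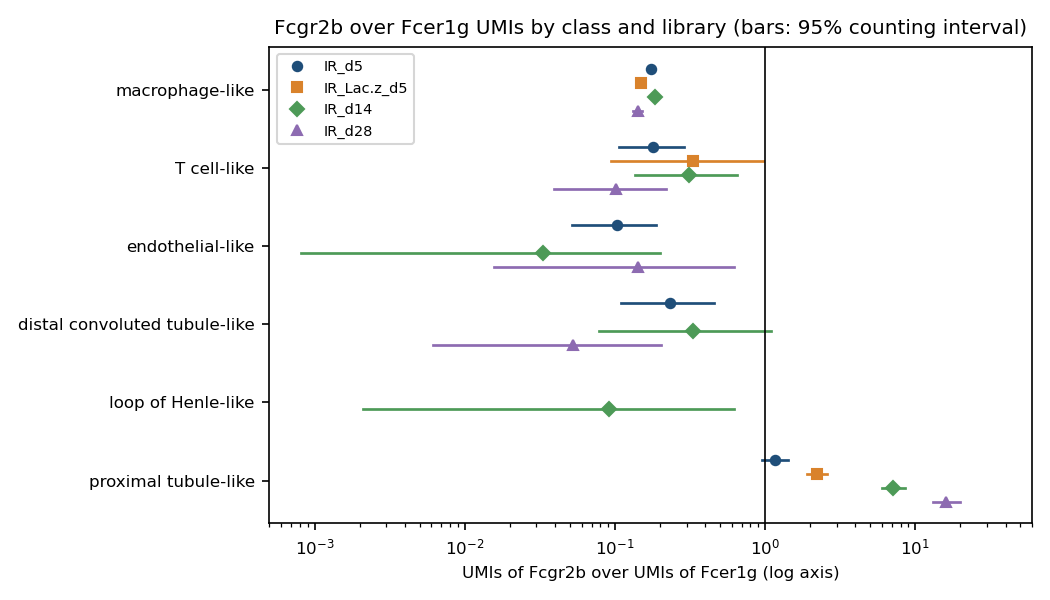
Fcgr2b UMIs per Fcer1g UMI (log axis, line at 1) by class and library. The 4 proximal tubule-like values run from 1.16 in IR_d5 to 16.1 in IR_d28, and the macrophage-like values lie between 0.142 and 0.186.

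Few genes of the pathway downstream of the receptors passed the limit in macrophage-like cells. Of 30 measured genes of ITAM and ITIM signalling, 1 was higher and 1 lower in IR_Lac.z_d5, 1 and 2 in IR_d14, and 4 and 2 in IR_d28, with median log2 ratios of 0.12, 0.05 and 0.06. For this and the other lists below, the shares of all measured genes in macrophage-like cells were 6.88% higher and 3.11% lower in IR_Lac.z_d5, 9.92% and 13.3% in IR_d14, and 16.6% and 13.2% in IR_d28. In IR_Lac.z_d5 the adaptor Dok2 was 1.51-fold lower. Dok2 was also lower in IR_d14 (3.58-fold), with the phospholipase Pla2g4a (1.65-fold), and in IR_d28 (1.98-fold), with the kinase Src (2.22-fold, 4 UMIs against 171). Lyn, a kinase that phosphorylates both motifs, was higher in IR_d14 and IR_d28 (1.59-fold in each). Plcg2, at 1.51-fold, and Syk, the kinase that docks on the ITAM, were among the 4 higher in IR_d28. Syk was at ratios of 1.03, 1.45 and 1.51 and Inpp5d at 1.14, 1.13 and 1.21 over the 3 libraries, so that Syk passed the limit in IR_d28 only and Inpp5d in none.

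Of the adaptor and receptor partners of the gamma chain, 6 were measured; 0 were called in IR_Lac.z_d5, 1 was lower in IR_d14, beside 13.3% of all measured genes, and 3 in IR_d28, beside 13.2%, with median log2 ratios of -0.16, -0.28 and -0.89. The lower genes were C-type lectin receptors that signal through the same chain: Clec4d in IR_d14 (2.63-fold), and in IR_d28 Clec4e (7.80-fold, 12 UMIs against 1803), Clec4d (4.22-fold) and Clec4n (3.31-fold). Tyrobp, which encodes the related adaptor DAP12, was at ratios of 0.969, 0.919 and 0.968.

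Of other Fc receptors, 4 were measured, and 1 was higher and 1 lower in IR_Lac.z_d5, 0 and 0 in IR_d14, and 1 and 1 in IR_d28 (medians -0.15, -0.08 and 0.02). Trim21, which encodes the cytosolic antibody receptor, was higher in IR_Lac.z_d5 (14.3 against 7.66 CPM, 1.87-fold) and at ratios of 0.934 and 1.14 later. Fcrls, an Fc receptor-like gene of macrophages and microglia, was lower in IR_Lac.z_d5 (222 against 344 CPM, 1.55-fold) and in IR_d28 (1.89-fold), and Fcrl1 was higher in IR_d28 (1.68-fold, 14 UMIs against 161). Pigr, the polymeric immunoglobulin receptor of epithelia, had 10 and 17 UMIs in the day-5 macrophage-like cells and was not measured in IR_Lac.z_d5, and Fcamr had 0 UMIs.

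Among FcRn partners and ligands, 3 were measured and 2 were higher in every comparison (beside 6.88%, 9.92% and 16.6% of all measured genes), B2m as above and Lrp2 (1.83-fold, 2.75-fold and 3.83-fold), with medians of 0.87, 0.64 and 1.01. Lrp2 encodes megalin, the endocytic receptor of the proximal tubule, and the summed proximal tubule markers in macrophage-like cells were higher too, at 80.8, 109, 286 and 432 CPM in IR_d5, IR_Lac.z_d5, IR_d14 and IR_d28, with 6 of 11 higher in IR_Lac.z_d5 and 11 of 11 at both later times and none at 0. The part of tubule RNA in the Lrp2 values was not tested. Of the immunoglobulin genes, a list wider than immunoglobulin G, 3 were measured in IR_Lac.z_d5 and 2 were higher (Igkc 3.91-fold, Igha 2.70-fold), with a median of 1.43. In IR_d14, 0 of 3 were called (median 0.34). In IR_d28, 1 of 2 was higher (Igkc 1.81-fold, 15 UMIs against 160), with a median of 0.68. Plasma-like cells, which make these transcripts, numbered 0 in IR_d5, 15 in IR_Lac.z_d5, 4 in IR_d14 and 0 in IR_d28, and the part of their RNA was not tested.

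Other phagocytic receptors moved in both directions. Of 11 measured genes, 1 was higher and 3 lower in IR_Lac.z_d5, 2 and 4 in IR_d14, and 3 and 5 in IR_d28, with median log2 ratios of -0.18, -0.35 and -0.40. The apoptotic-cell receptor Axl was higher in all 3 (1.71-fold, 2.14-fold and 2.12-fold), as were the endotoxin co-receptor Cd14 in IR_d14 (2.18-fold) and IR_d28 (1.503-fold) and the complement receptor chain Itgax in IR_d28 (1.85-fold). The scavenger receptors Marco and Stab1 were lower in all 3, Marco by 1.76-fold in IR_Lac.z_d5 and by 8.59-fold in IR_d14 (2 UMIs against 111), and Stab1 by 1.66-fold, 2.35-fold and 3.58-fold. Mrc1, the mannose receptor, was 1.59-fold lower in IR_Lac.z_d5, and Msr1, the class A scavenger receptor, was lower in IR_d14 (2.27-fold) and IR_d28 (2.96-fold).

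Over 22 classes and macrophage-like sub-clusters, the genes whose log2 level was most like each member's were mostly myeloid. For Fcgr1 they were Clec4a1 (Pearson r = 0.985), Tlr1 (0.983) and Csf1r (0.981), and for Fcgr3 Lpcat2 (0.983), Clec4a2 (0.982) and Itgam (0.979). For Fcgr4 they were Lair1 (0.98), Lpcat2 (0.979) and Clec4a2 (0.976), and for Fcgr2b Lyz2 (0.979), Cd68 (0.973) and P2ry6 (0.968). Fcer1g was closest to Tyrobp (0.982), Itgam (0.96) and Metrnl (0.941). Fcgrt had lower correlations, with Epn1 (0.885), Cxcl16 (0.882) and Cttnbp2nl (0.863) as its closest genes. Among the 6 genes the closest pair was Fcgr3 and Fcgr4 (0.97) and the least alike Fcer1g and Fcgrt (0.347). The points share libraries and several are parts of one class, so these values describe the levels only.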

How the data were processed

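The deposited matrices held raw UMI counts of 31053 genes by barcode for 4 droplet libraries of kidney, made by the authors from digested, strained and red-cell-depleted suspensions per the labels' protocols, on mm10 per the submitters' processing notes; software versions 3.0.2 (both day-5 libraries) and 3.1.0 (the others) stand in the matrix headers per the file headers. Which aligner and annotation were used is not stated in the sources used here. Barcodes under 200 detected genes or above 50% of UMIs from mitochondrial genes were left out (remaining: 7086, 7043, 9572 and 14138), and the highest Scrublet scores, 0.8% per 1000 barcodes, were removed as doublets (478, 460, 858 and 1762); Scrublet's own threshold marked 186, 66, 79 and 194. Cells were clustered jointly in scanpy 1.11.5 with 2000 variable genes, 30 components, 20 neighbours and resolution 1, immune cells again, without the 6 genes and, in the second round, without 101 interferon-stimulated genes. A cluster was named where its best marker list scored at least 1 and led by 0.75, limits set after the clusters were seen; an immune sub-cluster with T and macrophage genes (12, 71, 93 and 99 cells) stayed unnamed and out of all classes. UMIs were summed per class and library. A ratio of at least 1.5 with at least 50 UMIs over both libraries, 1 UMI added to each, was called, and no p-value was made since each group had 1 library. Intervals (95%) were exact Poisson, Clopper-Pearson or conditional binomial ones and cover counting error only. The computation was tested on simulated data. Genes named were the 6 members, at most 3 called genes each way of 6 lists, 7 set partner genes (Syk, Inpp5d, Tyrobp, Trim21, B2m, Pigr and Fcamr) and the 3 genes most correlated with each member (log2 of CPM plus 10, genes of at least 500 UMIs). One gene that this rule takes from a list is not reported here. The members and lists were chosen with earlier results of these data known. Alternatives changed the filters, doublet removal, clustering, scaling (TMM, edgeR 4.0.16) and call limits.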

Additional observations from a re-analysis of the deposited data

How the results depend on the processing

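The count of called members in macrophage-like cells stayed within 1.5-fold of the stated one in 31 of 34 alternative values and changed in 3. Single-gene ratios in macrophage-like cells moved beyond their counting interval in 58 of 204 alternative values, levels by class in 17 of 234 and counts over all genes by over 1.5-fold in 8 of 34. In IR_Lac.z_d5 the count of called members was 0 inside the interferon-led cluster. Outside that cluster the count was again 2, but of Fcgr4 higher and Fcgrt 1.5-fold lower. In IR_d14 it was 0 with each library clustered on its own (Fcgr4 at 1.35) and 0 within the Lilra5 and Cx3cr1 sub-cluster (Fcgr4 at 1.16), and in IR_d28 the 1 gene called within that sub-cluster was Fcgr2b, not Fcgr4. The alternatives from the interferon-led cluster, the single sub-cluster and leaving out the sub-cluster of few UMIs were chosen after seeing the data. Over all genes, 1134, 2575 and 3286 were called in IR_Lac.z_d5, IR_d14 and IR_d28, 4290, 7478 and 8885 with no minimum of UMIs, 633, 1669 and 2137 with a minimum of 200, and, within the single sub-cluster, 1463 in IR_d14 and 1830 in IR_d28. The activating to inhibitory ratio of IR_d5 was 2.67 with each library clustered on its own. With each library clustered on its own, Fcgr1 and Fcgr4 in IR_Lac.z_d5 were at 1.93 and 2.17. The cause of these changes was not tested. Other scalings moved all log2 ratios by at most 0.0584. No direction of a called value reversed under these settings. No paired analysis was possible because each group had 1 library. Classes of few cells or UMIs (neutrophil-like Fcgr2b, NK-like Fcgr3) are limited by depth.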
